A study of Mus musculus with 16 samples.

Results

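The Dlk1-Meg3 imprinted locus was followed through 5 of its genes, Dlk1, Meg3, Rian, Mirg and Dio3, which were picked by symbol from the 23100 genes of the count table. RNA had been sequenced from mouse embryonic fibroblasts, the connective tissue cells that grow out of dissociated embryos, taken from E13.5 embryos of the C57BL/6 strain. Of 4 cell lines, 2 were wildtype (Zac+/+) and 2 were Zac1 mutant (Zac+/-, with the title code KOpat, which the labels do not expand), and every line was kept in DMEM with FBS. Each line gave 1 library of proliferative cells at day 2 in vitro and 3 of quiescent cells, at days 8, 10 and 12, which makes 16 libraries and 2 lines a group. Zac1 is the older name of Plagl1, a zinc finger transcription factor that is itself imprinted. Both replicate 1 lines carry the letter I in the labels and both replicate 2 lines the letter L. The sources used here do not give whether lines came from the same embryos or litters, and the p-values below measure only the spread between 2 lines a group.

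In the mouse the locus is expressed by parent of origin. The paternal chromosome transcribes Dlk1, which encodes a transmembrane protein related to the Notch ligands and known to hold back adipocyte differentiation, the retrotransposon-derived gene Rtl1, and Dio3, the deiodinase that inactivates thyroid hormone. The maternal chromosome transcribes a series of non-coding RNAs: Meg3, then Rian, which carries small nucleolar RNAs, then Mirg, which hosts a large cluster of microRNA hairpins. A methylated region between Dlk1 and Meg3 sets which chromosome expresses which genes. Parent of origin cannot be read from these gene counts.

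The sequence before the start site is shown for Meg3, Dlk1 and Dio3, chosen after their values were seen because these had the largest fitted increases at quiescence in the wildtype. The RefSeq promoter table (GRCm38.p6) was used, and each run is the 250 bases before the annotated start on the plus strand, with matches to TATAAA and TGACGTCA in capitals.
Meg3, chr12:109540746-109540995: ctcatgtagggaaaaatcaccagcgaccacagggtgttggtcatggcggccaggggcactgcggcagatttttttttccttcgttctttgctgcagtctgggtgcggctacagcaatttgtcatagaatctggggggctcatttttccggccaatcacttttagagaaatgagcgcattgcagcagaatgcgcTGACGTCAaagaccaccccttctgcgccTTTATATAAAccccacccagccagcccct
Dlk1, chr12:109452573-109452822: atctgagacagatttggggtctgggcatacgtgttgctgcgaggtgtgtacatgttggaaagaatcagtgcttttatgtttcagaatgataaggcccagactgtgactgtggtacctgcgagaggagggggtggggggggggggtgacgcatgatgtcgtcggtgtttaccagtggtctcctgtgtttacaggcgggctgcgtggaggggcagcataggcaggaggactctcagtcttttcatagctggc
Dio3, chr12:110278980-110279229: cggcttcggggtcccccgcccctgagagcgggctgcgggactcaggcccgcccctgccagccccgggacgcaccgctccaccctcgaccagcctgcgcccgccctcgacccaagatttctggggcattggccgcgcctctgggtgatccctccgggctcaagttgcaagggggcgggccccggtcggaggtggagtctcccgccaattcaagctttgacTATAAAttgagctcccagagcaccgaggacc
Matches were searched on both strands in windows of 300 bases, which add 50 bases after the start. The Meg3 window held TGACGTCA, the palindromic cAMP response element, at -57 from the start, and TATAAA at -29 on the minus strand and at -25 on the plus strand, so that the TATA matches overlap. A second annotated Meg3 start, with its window at chr12:109545148-109545447, held none of the motifs and 1 CpG. The Dio3 window held TATAAA at -31, and the Dlk1 window held neither motif. Of 32851 promoters, 13.6% held TATAAA and 1.79% held TGACGTCA. GGGGCCCC, a palindrome that ZAC1 is known to bind, was in none of the 3 windows and in 1.08% of all promoters. The Dio3 window had 25 CpG dinucleotides and 69.0% GC, against 13 and 53.7% for Meg3 and 9 and 55.7% for Dlk1. The medians over all promoters were 7 CpG and 52.7% GC.

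The libraries held 28079241 to 61039793 counted reads. Levels are given as CPM, the count of a gene over the scaled library total, and 3 counts in a library equal 0.0491 to 0.107 CPM. Plagl1, the targeted gene, was lower in the mutant at every day. It stood at 45.4 and 37.7 CPM in the wildtype lines at day 2 and at 9.14 and 7.59 CPM in the mutant lines. Over the 12 quiescent libraries it was at 128 to 231 CPM in the wildtype and 40.5 to 60.3 CPM in the mutant. All 8 fibroblast markers were above 1 CPM, and their sum was 13627 to 15052 CPM in proliferative and 30305 to 42361 CPM in quiescent libraries. Not every marker rose with the sum. In the wildtype means of days 2 and 12, Vim was at 4460 and 2425 CPM. S100a4 was at 1671 and 564 CPM, and Thy1 at 401 and 247 CPM, while the collagen and Pdgf receptor genes rose. The 4 hepatoblast markers summed to at most 0.655 CPM in any library, whereas the 7 macrophage markers in the table summed to 11.9 to 352 CPM, the 5 cartilage markers to 67.3 to 576 CPM and the 7 skeletal muscle markers to 46.5 to 299 CPM.

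From proliferation to quiescence 3 of the 5 genes rose in wildtype fibroblasts, Dio3 7.86-fold, Meg3 2.62-fold and Mirg 1.42-fold. In the mutant, Dio3 rose 4.15-fold and Meg3 1.93-fold. Rian, which lies between Meg3 and Mirg and is transcribed in the same direction, stayed within 1.21-fold of its proliferative level in each of the 4 lines when the quiescent harvests were summed, and passed the test in neither genotype. Dlk1 was higher in the quiescent sum of all 4 lines, from 1.07-fold to 5.14-fold, although mutant replicate 2 was below its day 2 level at day 12, and it too passed the test in neither genotype. For these tests, the 3 quiescent harvests of each line were summed, and a gene was called at an adjusted p under 0.05 over 15740 genes (edgeR's quasi-likelihood test). By this rule 23.9% of all genes were called higher and 23.7% lower in the wildtype, and 21.1% higher and 21% lower in the mutant. A call is therefore common among all genes, and 3 of 5 or 2 of 5 does not set the locus apart. Calls in either direction in the wildtype went from 7486 to 4185 without its replicate 1 and to 4380 without its replicate 2. Skeletal muscle markers summed to 148 to 299 CPM in proliferative and 46.5 to 96.0 CPM in quiescent libraries, with Myf5 at 0 counts throughout. Endothelial markers summed to 12.6 to 16.4 CPM and 2.57 to 7.11 CPM, with Tie1 at 0. Epithelial markers summed to 10.1 to 14.2 CPM and 1.55 to 4.15 CPM, and neural ones to 60.4 to 89.9 CPM and 23.0 to 60.1 CPM. At day 2 the muscle, endothelial and epithelial sums were mostly 1 gene each. In the wildtype means of days 2 and 12, Acta1 was at 240 and 41.9 CPM. Kdr was at 14.8 and 1.66 CPM, and Krt18 at 9.53 and 0.940 CPM. Other markers went up, Des from 14.5 to 17.9 CPM, Tek from 0.479 to 2.65 CPM and Cdh1 from 0.131 to 1.91 CPM. The part of these cell types in the result was not tested. In bulk RNA, fewer cells expressing a gene and less RNA per cell cannot be told apart.

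**Figure D1:**
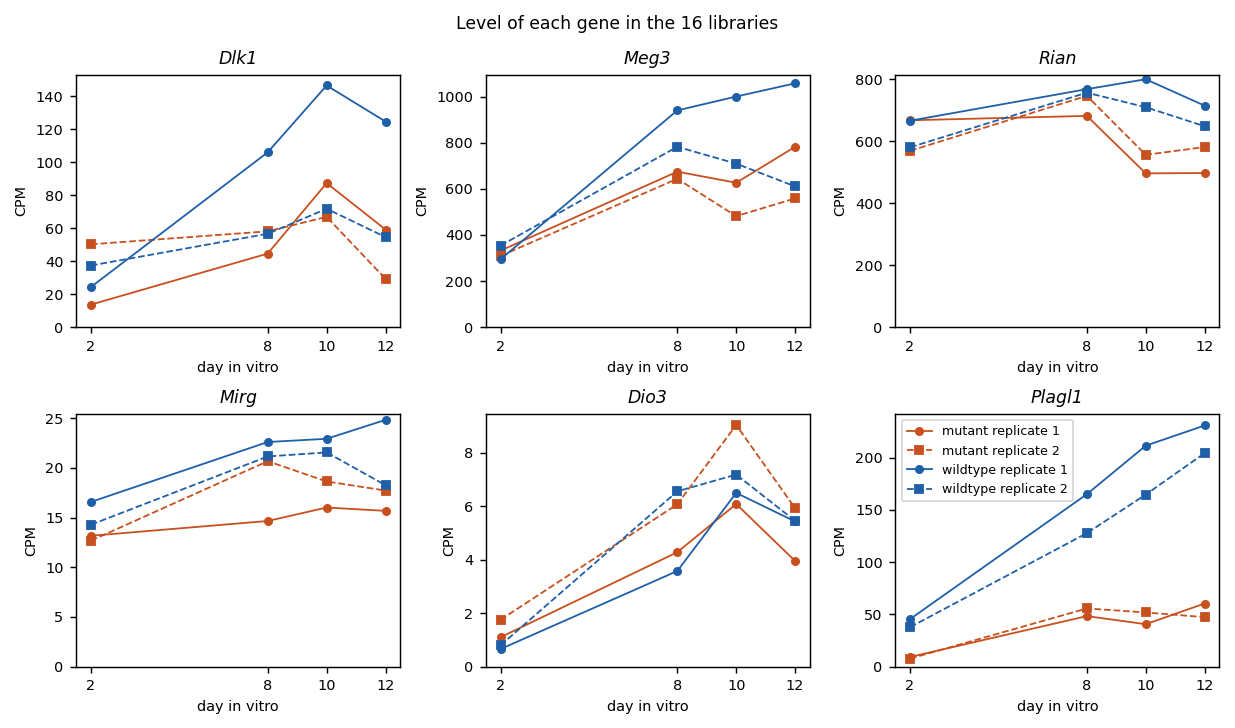
CPM of the 5 genes and of Plagl1 against day in vitro, with 1 curve per cell line (blue wildtype, orange mutant; circles and solid lines replicate 1, squares and dashed lines replicate 2). Meg3 and Dio3 are above their day 2 level at each later day in all 4 lines, Rian is above it at day 8 in all 4 lines but at day 10 in the wildtype lines alone, and the Dlk1 curve of wildtype replicate 1 lies above the other 3 at days 8, 10 and 12.

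Meg3, the first of the maternal RNAs, was at 295 and 354 CPM in the wildtype lines at day 2, and at 332 and 309 CPM in the mutant lines. In wildtype replicate 1 it was at 940, 1000 and 1058 CPM at days 8, 10 and 12, and in replicate 2 at 783, 709 and 611 CPM. The mutant lines gave 675, 627 and 782 CPM, and 644, 482 and 559 CPM. Every quiescent library was thus above every proliferative one, a separation whose share over all genes was not counted. The fitted log2 change was 1.39 (SE 0.18, adjusted p = 1.94e-04, edgeR) in the wildtype and 0.95 (SE 0.18, adjusted p = 0.00224) in the mutant.

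Rian had the smallest fitted changes of the 5. Wildtype replicate 1 went from 667 CPM at day 2 to 769, 801 and 715 CPM, and replicate 2 from 581 CPM to 757, 710 and 649 CPM. Mutant replicate 1 went from 668 CPM to 682, 497 and 498 CPM, and replicate 2 from 570 CPM to 747, 557 and 582 CPM. Quiescent and proliferative levels of single libraries overlapped in both genotypes, and the summed levels overlapped in the mutant alone. The log2 change was 0.23 (SE 0.12, adjusted p = 0.151, edgeR) in the wildtype and -0.04 (SE 0.12, adjusted p = 0.805) in the mutant.

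Mirg, the microRNA host, was far lower than either. The wildtype lines had 16.6 and 14.3 CPM at day 2, against 22.6, 22.9 and 24.8 CPM at quiescence in replicate 1 and 21.2, 21.6 and 18.3 CPM in replicate 2. The mutant lines had 13.2 and 12.7 CPM at day 2, then 14.7, 16.01 and 15.7 CPM, and 20.7, 18.6 and 17.7 CPM. In each line the quiescent harvests were all above the proliferative one, and how many of all genes do the same was not counted. The log2 change was 0.51 (SE 0.15, adjusted p = 0.0204, edgeR) in the wildtype and 0.42 (SE 0.15, adjusted p = 0.0537) in the mutant. The wildtype call was lost when either wildtype line was left out (adjusted p = 0.165 and 0.163), with the value at 0.49 both times. The mutant value passed under 4 of the alternatives tried, with adjusted p between 0.0350 and 0.0472.

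Dio3 was the lowest of the 5 and changed the most. It was at 0.655 and 0.795 CPM in the wildtype lines at day 2 and at 1.10 and 1.75 CPM in the mutant lines. Quiescent wildtype libraries held 3.57, 6.50 and 5.43 CPM in replicate 1, and 6.55, 7.18 and 5.45 CPM in replicate 2. Quiescent mutant libraries held 4.28, 6.08 and 3.95 CPM, and 6.07, 9.03 and 5.92 CPM. No quiescent library fell to the proliferative range, and in each line day 10 was the highest. The share of all genes whose states lie apart in this way was not counted. The log2 change was 2.97 (SE 0.33, adjusted p = 6.90e-05, edgeR) in the wildtype and 2.05 (SE 0.31, adjusted p = 6.23e-04) in the mutant.

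Dlk1, the Notch-related protein, varied widely between lines. Wildtype replicate 1 went from 24.4 CPM to 106, 147 and 125 CPM, while replicate 2 went from 37.4 CPM to 56.7, 71.8 and 54.6 CPM. Mutant replicate 1 went from 13.7 CPM to 44.7, 87.4 and 59.2 CPM, while replicate 2 began at 50.3 CPM and gave 58.1, 66.9 and 29.3 CPM. Both lines with the letter I therefore started lower than both with the letter L and had the larger fold differences, 5.14-fold and 4.70-fold against 1.63-fold and 1.07-fold. The log2 change was 1.58 (SE 0.71, adjusted p = 0.131, edgeR) in the wildtype and 0.87 (SE 0.70, adjusted p = 0.375) in the mutant, with SE values about as large as the mutant change. With voom, limma's method for counts, all 16 libraries entered singly, with the line as a random block at a consensus correlation of 0.0911. The wildtype change was then 1.48 with an adjusted p of 0.0138 (voom), still from 2 lines a group.

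The difference in that change between the letters was tested after the values of each line had been seen. For Dlk1, the change in the L lines minus that in the I lines was -1.87 on the log2 scale (SE 0.66, adjusted p = 0.285, edgeR). For Meg3 it was -0.49 (SE 0.15, adjusted p = 0.107). Rian, Mirg and Dio3 lay between -0.07 and 0.23. No member was called, while 2.88% of all genes were. Averaged over states, L minus I was 0.46 for Dio3 (SE 0.17, adjusted p = 0.506) and between -0.16 and 0.25 for the others, and 0.159% of genes were called.

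**Figure D2:**
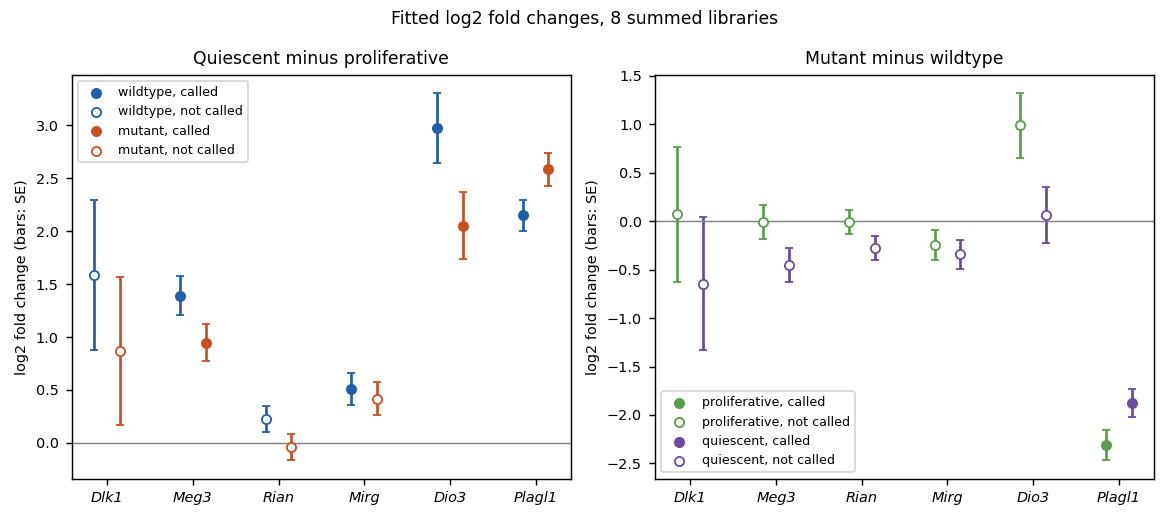
Fitted log2 fold changes with SE of the 5 genes and of Plagl1 over the 8 summed libraries, quiescent minus proliferative on the left and mutant minus wildtype on the right; filled points passed an adjusted p of 0.05. Meg3 and Dio3 are filled in both genotypes on the left, and on the right only Plagl1 is filled.

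Within a library, the ratio of Rian to Meg3 was lower at quiescence in each line. In wildtype replicate 1 the ratio of their counts was 2.26 in the proliferative library and 0.756 in the quiescent sum, and in replicate 2 it was 1.64 and 1.01. In the mutant lines it was 2.01 and 0.840, and 1.84 and 1.13. The mean log2 change over the 4 lines was -1.06 ± 0.43 (SD, n = 4), lower in 4 of 4 lines. These ratios do not depend on the scaling between libraries. The ratio of Mirg to Meg3 differed by -0.70 ± 0.43 (SD, n = 4), lower in 4 of 4 lines. That of Mirg to Rian differed by 0.36 ± 0.11 (SD, n = 4), higher in 4 of 4 lines. Each of these had p = 0.125 in the exact paired permutation test (two-sided), which is the smallest that 4 lines allow. Dlk1 to Meg3 was higher at quiescence in both I lines and lower in both L lines, with a mean of 0.19 ± 0.87 (SD, n = 4; exact permutation p = 0.75).

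**Figure D3:**
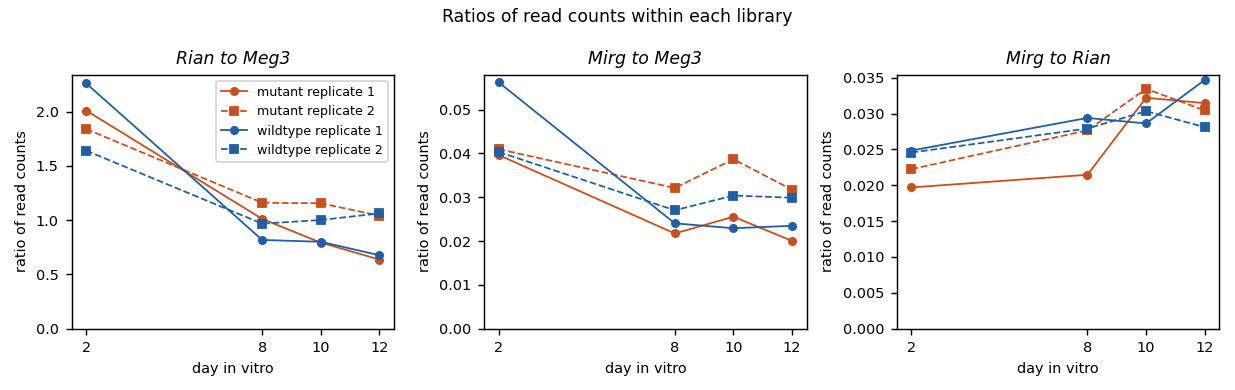
Ratios of read counts between 2 genes of the same library against day in vitro, for each of the 4 cell lines (colours and symbols as for the levels). Rian to Meg3 is lower after day 2 than at day 2 in every line, where it is 1.64 to 2.26, and Mirg to Rian is higher.

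Levels of different genes were compared per kilobase of exon, from the GENCODE M21 models. In proliferating wildtype cells Rian was the highest, at 34.2 CPM per kb over the union of its exons, followed by Meg3 at 17.9, Dlk1 at 5.46, Mirg at 2.12 and Dio3 at 0.357 CPM per kb. At quiescence in the wildtype Meg3 was at 47.0 and Rian at 40.2 CPM per kb by the same length, but by the longest transcript Rian was at 90.7 and Meg3 at 58.4 CPM per kb. The order of these neighbours in quiescent cells therefore depends on which transcripts were counted. By the exon union Dlk1 followed at 16.5, Mirg at 3.002 and Dio3 at 2.85 CPM per kb. By the longest transcript Mirg was at 5.73 CPM per kb, while Dio3 was again at 2.85 CPM per kb.

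Mutant and wildtype lines were compared in each state to ask whether the Zac1 mutation goes with another level of the locus. No member was called in either state, where 0.00635% of all genes, Plagl1 alone, passed. In quiescent cells the maternal RNAs were lower in both mutant lines than in both wildtype lines. Meg3 differed by -0.45 on the log2 scale (SE 0.18, unadjusted p = 0.0295, edgeR), Mirg by -0.34 (SE 0.15, unadjusted p = 0.0485) and Rian by -0.28 (SE 0.12, unadjusted p = 0.0485). All 3 had an adjusted p of 1.00. The Meg3 difference was -0.17 without wildtype replicate 1 and -0.68 without wildtype replicate 2. That of Mirg was -0.20 without mutant replicate 1. That of Rian was -0.15 with day 10 left out of the sum and -0.43 with day 8 left out. By unadjusted p they ranked 34, 74 and 75 among 15740 genes, and 0.254% of genes (40) were lower in the mutant at an unadjusted p under 0.05. Both mutant lines lay below both wildtype lines for 9.81% of all genes.

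The separation varied between days. Mirg was lower in both mutant lines at each of the 4 days, as for 0.104% of genes (16 of 15439). Rian was lower in both at days 8, 10 and 12, as for 0.363% of genes (56), but not at day 2. The harvests are repeats from the same lines, so these days are not independent. Meg3 separated the genotypes at days 8 and 10, and at day 12 mutant replicate 1 (782 CPM) was above wildtype replicate 2 (611 CPM). How many of all genes separate at a single day was not counted, so the Meg3 days cannot be set apart from other genes. Dlk1 overlapped between genotypes at every day, with a quiescent difference of -0.65 (SE 0.69), which was -0.05 without wildtype replicate 1 and -1.06 without wildtype replicate 2.

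Dio3 lay apart by value in proliferating cells and did not pass the adjusted test. Both mutant lines were above both wildtype lines at day 2, by 0.99 on the log2 scale (SE 0.33, unadjusted p = 0.0146, adjusted p = 1.00, edgeR). Dio3 ranked 120 by unadjusted p, among 451 genes with an unadjusted p under 0.05 in that comparison. How many of all genes separate this way at day 2 was not counted. Without mutant replicate 2 the Dio3 difference was 0.58. At quiescence the difference was 0.07 (SE 0.29). Its genotype difference at quiescence minus that in proliferation was -0.92 (SE 0.44, unadjusted p = 0.0640). This term was -0.72 (SE 0.98) for Dlk1, -0.44 (SE 0.25) for Meg3, -0.27 (SE 0.17) for Rian and -0.09 (SE 0.22) for Mirg. It was called for 0% of genes, with 265 at an unadjusted p under 0.05 and 1 called by DESeq2. In proliferation the other differences were 0.07 for Dlk1, -0.01 for Meg3, -0.00 for Rian and -0.25 for Mirg.

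Fitted within each day on the 16 libraries, where the repeat harvests from 1 line enter as if independent, no member was called at day 8, 10 or 12, and neither were other genes than Plagl1 (0.00648% at each day). Rian at day 10 came nearest, at -0.52 (SE 0.13, unadjusted p = 0.00125, adjusted p = 0.475, edgeR). DESeq2 gave -0.54 with an adjusted p of 0.0161. At day 8 its difference was -0.09 (SE 0.13) and at day 12 it was -0.34 (SE 0.13). Between days 8 and 12, averaged over genotypes, Rian went down by value, at -0.28 (SE 0.09, adjusted p = 0.131, edgeR; 0.0314 by DESeq2), while the other 4 lay between -0.05 and 0.02. In that comparison 3.12% of genes (482) were called, and 943 with the line as a block.

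The rest of the locus was read from 69 table rows that lie between Dlk1 and Dio3 in the RefSeq gene order, both ends included. Apart from the 5 genes these are 58 microRNA genes and 6 others, and 18 of the 64 had enough counts to be tested in the summed libraries. The 58 microRNA rows held 3123 counts in all 16 libraries together, against 1096544 for the 5 genes, and 15 of them held none. The kit is not one for small RNA, so these rows count reads over hairpin genes and not the mature microRNAs. In the wildtype 6 of the 18 rows were called higher at quiescence and none lower, and in the mutant 4 and none. A row that passed the filter through its quiescent counts alone was bound to differ, so these counts support nothing about the locus. None of the 18 was called between genotypes in either state (edgeR). At quiescence 14 of 18 were lower in the mutant by value, beside 45.2% of all genes. Most of these rows lie within the annotated spans of Rtl1, Rian or Mirg, so they need not be separate observations.

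Rtl1, the paternally expressed gene whose mRNA is the target of antisense microRNAs, held 0 to 5 counts in each proliferative library. At days 8, 10 and 12 it held 52, 46 and 43 counts in wildtype replicate 1 and 16, 12 and 14 in replicate 2. The mutant lines had 59, 12 and 12 counts, and 11, 3 and 2. The line with the letter I had the higher counts in each genotype at these days. Rtl1 passed the filter through its quiescent counts, so its test is not given. The sources used here do not state the strand setting of the counting, so reads of Rtl1 and of transcripts on the strand opposite to it cannot be told apart, and the same holds for Dio3 and Dio3os where they overlap.

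Dio3os, the non-coding transcript on the other strand from Dio3, held 1 to 9 counts in the proliferative libraries and 21 to 112 in the quiescent ones. The non-coding gene 6430411K18Rik held 7 to 20 counts in the proliferative libraries and 32 to 131 in the quiescent ones. Both were higher at quiescence in each line, and their tests are left out for the same reason. AF357359, a small nucleolar RNA gene of the Rian region, rose by 0.76 (SE 0.23, adjusted p = 0.0211, edgeR) in the wildtype. In the mutant its log2 change was 0.06 (SE 0.23, adjusted p = 0.860). The difference between the genotypes' changes was -0.71 (SE 0.33, unadjusted p = 0.0565, adjusted p = 1.00). AF357359 had its mutant levels of day 10 (3.80 and 5.17 CPM) below the wildtype ones (8.35 and 8.52 CPM), as Rian did. The row lies within the annotated span of Rian, and the share of all genes that separate at day 10 was not counted.

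**Figure D4:**
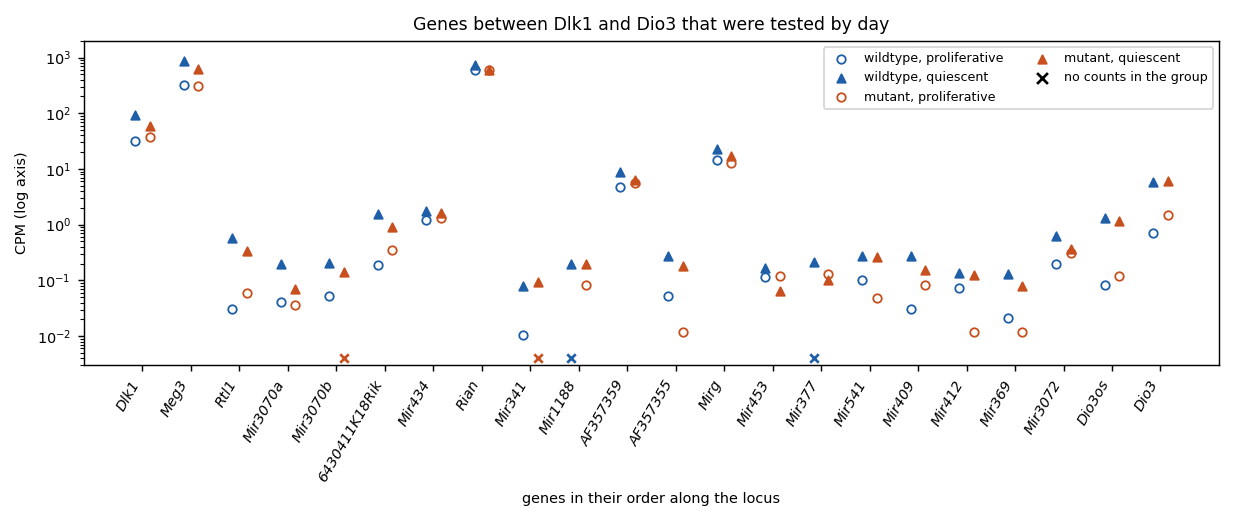
CPM on a log axis of the 5 genes and the 17 other rows from Dlk1 to Dio3 that were tested by day, in their order along the chromosome, for each genotype and state (group totals over their libraries; a cross marks a group with no counts). Meg3 and Rian are the highest, Dlk1 and Mirg follow, and most hairpin rows are below 1 CPM.

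Sequences are shown for the hairpin row with the most counts, Mir434, and for the 4 called in either genotype, Mir377, Mir1188, Mir541 and Mir3070b, as the mature forms these genes give in RefSeq (GRCm38.p6), with the seed, bases 2 to 8, in capitals.
miR-434-5p, chr12:109594528-109594549: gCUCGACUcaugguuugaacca
miR-434-3p, chr12:109594565-109594586: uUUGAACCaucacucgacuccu
miR-377-5p, chr12:109740515-109740536: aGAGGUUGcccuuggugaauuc
miR-377-3p, chr12:109740553-109740574: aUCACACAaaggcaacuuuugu
miR-1188-5p, chr12:109611841-109611861: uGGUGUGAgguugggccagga
miR-1188-3p, chr12:109611877-109611901: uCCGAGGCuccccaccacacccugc
miR-541-5p, chr12:109742422-109742446: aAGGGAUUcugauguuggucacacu
miR-541-3p, chr12:109742466-109742487: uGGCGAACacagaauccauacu
miR-3070-5p, chr12:109588608-109588630: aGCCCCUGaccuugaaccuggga
miR-3070-2-3p, chr12:109588648-109588669: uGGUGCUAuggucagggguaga
No seed is shared within this set. The 58 microRNA genes of the locus had 107 mature forms in RefSeq, which also gave a hairpin entry for 56 of these genes. Of the 107 mature forms, 16 shared a seed with another, in 8 groups of 2. Mir434 held 1255 counts and 1.03 to 2.62 CPM per library, and its log2 change with quiescence was 0.34 (SE 0.33, adjusted p = 0.422, edgeR) in the wildtype and 0.26 (SE 0.33, adjusted p = 0.553) in the mutant. Mir541, with 10 counts in proliferative and 84 in quiescent wildtype libraries and 4 and 78 in the mutant, also passed the filter through its quiescent counts. Mir377 and Mir1188 had 0 counts in the proliferative wildtype libraries and 68 and 62 in the quiescent ones, against 11 and 30, and 7 and 59, in the mutant. Mir3070b had 0 counts in proliferative and 42 in quiescent mutant libraries, against 5 and 64 in the wildtype. With a group at 0, a fold cannot be read for these 3.

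Of the chromosomal neighbours to either side of Dlk1 and Dio3, 11 were tested. In both genotypes 1 rose, Begain, and 1 fell, Hsp90aa1. Beside this, 23.9% of all genes were called higher and 23.7% lower in the wildtype, and 21.1% and 21% in the mutant. Begain, next to Dlk1, rose by 2.12 (SE 0.35, adjusted p = 7.50e-04, edgeR) and 1.33 (SE 0.34, adjusted p = 0.0105) on the log2 scale. Hsp90aa1, the inducible cytosolic HSP90 chaperone beyond Dio3, fell by 1.33 (SE 0.20) in the wildtype and by 1.09 (SE 0.20) in the mutant. The median log2 change of the 11 was -0.07 in the wildtype, against 0.05 over all genes, and no neighbour was called between genotypes.

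Dio3 acts on thyroid hormone, and other genes of that pathway were listed with earlier results of these data known. The counts below therefore describe the listed genes and do not test the pathway. Of 15 tested, 12 were called higher and none lower in wildtype quiescence, with a median log2 change of 1.20 against 0.05 over all genes, of which 23.9% were called higher. In the mutant 10 rose and 1 fell, with a median of 0.57, against 21.1% and 21% of all genes. Crym, called in the wildtype, was at 0.127 CPM at day 2 and passed the filter through its quiescent counts. Slco1c1, uncalled but among the 15 and in the median, was at 0 CPM in the wildtype at day 2. In the wildtype, Dio2, the deiodinase that activates the hormone, rose 7.12-fold and Thrb, a nuclear receptor for it, rose 6.61-fold. In the mutant, Hr, a corepressor, rose 5.26-fold and Thrb 4.75-fold. Both the inactivating and the activating deiodinase were thus higher in quiescent cells of both genotypes. None of the 15 was called between genotypes in either state.

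Of the Notch pathway, to whose ligands Dlk1 is related, 7 of 27 genes tested rose and 4 fell in the wildtype, with a median log2 change of 0.20, and 3 rose and 3 fell in the mutant. Against 23.9% of all genes called higher and 23.7% lower in the wildtype, this is no result about the pathway. The ligand gene Dll1, counted among the 7, was at 0.0977 CPM at day 2 and passed the filter through its quiescent counts. The receptor gene Notch3 rose by 2.77 (SE 0.35) and Dlk2, the paralogue of Dlk1, fell by 1.62 (SE 0.52) in the wildtype. Notch3 and Dlk2 changed the same way in the mutant (2.104 and -2.02), as did Rbpj (-0.67), the DNA-binding factor of the pathway. Of 8 adipocyte genes tested, 2 were called higher and none lower in each genotype. Beside 23.9% of all genes called higher in the wildtype and 21.1% in the mutant, this is no result about adipocyte differentiation. The 2 were Cebpa and Lpl. On the log2 scale they rose by 1.61 and 1.04 in the wildtype and by 1.21 and 1.07 in the mutant. By value 6 of the 8 were positive in each genotype, while Pparg was at -0.55 in the wildtype and -0.77 in the mutant, uncalled. Cebpa encodes an adipogenic transcription factor and Lpl the lipoprotein lipase.

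Genes that keep or read imprints went both ways. Of 17 tested, 6 rose and 6 fell in the wildtype, and 6 rose and 7 fell in the mutant, beside 23.9% of all genes called higher and 23.7% lower in the wildtype and 21.1% and 21% in the mutant. Uhrf1, which guides the maintenance methylase to replicating DNA, fell by 2.31 (SE 0.15) in the wildtype and by 2.35 (SE 0.15) in the mutant. Dnmt1, that methylase, fell by 1.47 (SE 0.13) in the wildtype and by 1.49 (SE 0.13) in the mutant. Tet2 and Tet1, which oxidise methylcytosine, rose in the wildtype by 1.87 (SE 0.24) and 1.70 (SE 0.32). In the mutant Tet2 rose by 1.67 (SE 0.24) and Tet1 by 1.46 (SE 0.32). All 8 cell cycle genes fell in both genotypes, and their summed level was 1451 to 1745 CPM in proliferative and 211 to 493 CPM in quiescent libraries. Its part in the changes of the locus was not tested.

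Of 14 other genes placed in the imprinted gene network, 8 rose and 3 fell in each genotype. This list too was chosen with earlier results of these data known, so its counts and medians are a description. Of all genes, 23.9% were called higher and 23.7% lower in the wildtype, and 21.1% and 21% in the mutant. The median log2 change of the 14 was 0.95 in the wildtype and 0.78 in the mutant, against 0.05 over all genes in each. Mest (5.38, SE 0.48), Dcn (4.44, SE 0.29) and H19 (3.32, SE 0.51) had the largest wildtype changes on the log2 scale, above the 2.97 of Dio3. No list had a member called between genotypes.

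Patterns over the 16 libraries were compared by Pearson's r of log2 CPM, as a description, since the libraries come from 4 lines and share the step from day 2 to quiescence. Among 15438 genes Mirg was most like Plagl1 itself (r = 0.879), ahead of Mettl17, Snord123, Sv2c and Mtcp1. Plagl1 is the targeted gene, so its pattern also carries the genotype. Within groups of genotype and day, where the group means are taken out, the r of Mirg with Plagl1 was 0.509 and that with Rian 0.737. By this measure Plagl1 ranked 1267 and Rian 128 among the 15438 genes, and Mtcp1 was at 0.824. Meg3 was most like Ctnna2 (r = 0.977), Sema5a, Dclk2, Gria1 and Svil. Its r with Dlk1 was 0.787, and 0.658 within groups, but with Rian only 0.399, and -0.01 within groups.

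Dlk1 was most like Gpr30 (r = 0.948), Efnb3, Blcap, Sbk1 and Ltbp4. Gpr30 followed it within groups as well (r = 0.926), as did Ltbp4 (r = 0.934). Dio3 was most like Trp53inp2 (r = 0.973), Ppp1r3c, Sync, Pnrc1 and Lancl1. For Rian the highest r was 0.828, with Mir369, a row of 66 counts in all, followed by Xlr3b, Zfp422, Zfp619 and Rgs22, and within groups Zfp422 was at r = 0.930 and Mir369 at 0.268.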

How the data were processed

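The deposited table holds counts of reads per gene made by the authors, whole numbers with no normalization. Per the submitters' processing notes, the tools named are HTSeq 0.6.1p1, TopHat2 2.1.1, Bowtie2 2.2.9 and bcl2fastq 2.18, with the build mm9, and per the labels' protocols the libraries were stranded and made from DNase-treated total RNA. The sources used here do not give the annotation or the strand setting. Of 23100 gene IDs, 22982 matched RefSeq, which gave names and gene order only.

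Counts were TMM-scaled to CPM. The day 2 library and the sum of days 8, 10 and 12 of each line gave 8 summed libraries in 4 groups, tested with edgeR 4.0.16 (R 4.3.3; filterByExpr, robust quasi-likelihood, 4 residual degrees of freedom, 15740 genes). Comparisons by day used 16 libraries in 8 groups (15439 genes). Benjamini-Hochberg adjusted p under 0.05 was called, and the SE is the absolute log2 change over the square root of F. The fits had no term for the line. The labels give the line, so day 2 and quiescent libraries of a line are paired, and their deviations from the group means correlated at 0.196 and 0.248. The test was tested on simulated data. DESeq2 1.42.0, limma 3.58.1 (voom), other scalings and filters, blocks, and fits without each line were alternatives.

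Named were the 5 genes, Plagl1, the rows and neighbours of the locus, of each other list the 3 called genes with the largest changes (1 gene is not reported here), and the 5 genes most like each member. Members and lists were chosen with earlier results of these data known.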

Additional observations from a re-analysis of the deposited data

How the results depend on the processing

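No member changed direction with a call in any alternative tried. The number of members called stayed at 2 to 4 for the change with quiescence in the wildtype and 2 to 3 in the mutant, and at 0 for each genotype comparison, except that DESeq2 called 1 at day 10 and 1 between days 8 and 12, Rian both times. Without each line in turn, 2 to 3 members were called in the wildtype, 2 in the mutant and 0 in the other comparisons. With the line as a replicate block, which pairs the libraries of a line, 3 members were called in the wildtype and 2 in the mutant, and the genes called between days 12 and 8 went from 482 to 943; no call on a member changed. As a random block in voom it gave 4 and 3, adding Dlk1 in the wildtype and Mirg in the mutant. The letter was not taken to pair lines across genotypes: deviations of lines with the same letter correlated between -0.108 and 0.0479, and with the letter as a replicate block 0 members were called between genotypes and the genes called at day 10 went from 1 to 2. Over all genes, 7486 were called in the wildtype, 4185 without replicate 1 and 4380 without replicate 2; L minus I gave 25, and 10 to 345 over its alternatives; days 12 and 8 gave 129 to 943, day 10 gave 0 to 51, day 8 gave 0 to 2 and day 12 gave 0 to 1. The genotype gave 1 to 3 in proliferation and 0 to 4 at quiescence, and genotype by state 0 to 1. The Plagl1 difference kept its sign but lost its call at day 8 without any 1 of the lines, in some fits at days 10 and 12, and with the 4 quiescent sums alone (adjusted p = 0.289, edgeR). The causes were not tested. With 2 lines a group an exact permutation test cannot go below p = 0.333 (two-sided), and Dio3 and the hairpin rows rest on few counts at day 2.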
